A study of Mus musculus with 3 samples.

Results

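T cells that carried a TRBV5 β chain, a TRAV3-3 α chain or both were described in droplet-based single-cell T cell receptor sequencing of sciatic nerves. Members were all cells with a productive TRB contig named TRBV5 or a productive TRA contig named TRAV3-3, where a contig is an assembled receptor transcript. There were 859 such cells among 6634 cells in all, of which 718 carried TRBV5 and 209 carried TRAV3-3. Both genes were chosen by clone size and pairing in replicates 2 and 3, where the largest clones that join them share TRBJ2-1 and a near-identical TRB junction. Clone size, pairing and J use in those 2 libraries are therefore given as descriptions with no test, and tests were run in replicate 1 only, whose large clones did not enter the choice.

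The cells were CD45+ cells sorted from the sciatic nerve of female, neuropathic NOD.AireGW/+ mice. These mice carry 1 copy of a dominant G-to-W mutation of Aire, the gene that drives display of self antigens in the thymus, on the autoimmune-prone NOD background, and their peripheral nerves are attacked by T cells. The 3 libraries came from 4 mice, since replicate 3 pooled 2 mice that cannot be separated here, and their age was not given in the sources used here. All libraries were of this 1 condition with no untreated or control group, so no condition was compared.

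Replicates 1, 2 and 3 held 2374, 3555 and 705 cells with a median of 6, 5 and 3 UMIs (unique molecular identifiers, counts of captured transcripts) per productive contig. Across libraries 10 cell barcodes were shared, 3 of them with a member chain, and on 0 of these barcodes did both libraries hold the same rearrangement. The receptor contigs themselves mark these cells as αβ T cells, while gene expression was not analysed here, so CD4+ and CD8+ cells could not be told apart.

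A T cell builds each receptor chain by joining gene segments, V, D and J for the β chain (TRB) and V and J for the α chain (TRA), and trims and adds bases at the joins. The joined stretch, the CDR3, is the loop that lies over the centre of the peptide, whereas the CDR1 and CDR2 loops are fixed by the V gene. Cells that share the same V gene, CDR3 bases and J gene in both chains within a mouse are taken as descendants of 1 cell, a clone. Different cells can also reach the same CDR3 amino acids independently, more easily where the junction is close to the unmodified gene segments, and such recurrent receptors are called public.

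TRBV5 lies on chromosome 6 (41062332-41062803, plus strand, GRCm38, the build named mm10) upstream of the D and J segments, and TRAV3-3 lies on chromosome 14 (53665929-53666506, plus strand). The germline loops that every member receptor of replicates 2 and 3 carried are shown first, because they are what all TRBV5 or all TRAV3-3 receptors share. They were read in all 446 TRBV5 contigs and all 146 TRAV3-3 contigs of those libraries, the framework bases of replicate 1 not being in its table, and they lie in the last exon of each gene.
TRBV5 CDR1 (chr6:41062595-41062609): ctgggacataatgct
TRBV5 CDR2 (chr6:41062661-41062678): tacaatcttaaacagttg
TRAV3-3 CDR1 (chr14:53666305-53666322): gaccctaacagttattac
TRAV3-3 CDR2 (chr14:53666374-53666394): gttttctcaagtacggaaata

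The CDR3 bases of the largest clones joining both genes are shown next, because their TRB chains are the near-identical pair. Capitals mark bases that match neither the V nor the J segment of the reference, D bases included. The segments themselves are the end of TRBV5 from its conserved cysteine codon (chr6:41062787-41062803), TRBD1 (chr6:41533201-41533212) and TRBJ2-1 (chr6:41542754-41542803).
TRBV5 end: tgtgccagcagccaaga
TRBD1: gggacagggggc
TRBJ2-1: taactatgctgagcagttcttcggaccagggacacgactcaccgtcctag
Replicate 2 TRB, TRBV5 and TRBJ2-1: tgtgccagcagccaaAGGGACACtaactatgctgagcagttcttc
Replicate 3 TRB, TRBV5 and TRBJ2-1: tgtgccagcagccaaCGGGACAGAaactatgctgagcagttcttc
Replicate 2 TRA, TRAV3-3 and TRAJ34: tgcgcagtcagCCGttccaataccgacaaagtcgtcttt
Replicate 3 TRA, TRAV3-3 and TRAJ30: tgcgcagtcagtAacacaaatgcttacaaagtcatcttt

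Both TRB junctions were 45 bases long, so 15 residues, and differed at 3 bases, A16C, C23G and T24A, counted from 1 at the conserved cysteine codon with the base of replicate 2 first. Those differences changed 1 residue, T8R. Each kept 15 bases of TRBV5 and took a run of TRBD1, 6 bases in replicate 2 and 7 bases in replicate 3, which left 2 bases of each junction matching no segment. Among all 391 TRBV5 rearrangements the median was 15 bases of TRBV5 kept and 3 bases matching no segment, so both junctions lay near the median TRBV5 junction. A run this short can match a D segment without deriving from it.

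Both TRA junctions were 39 bases long and differed at 10 bases and at 5 of 13 residues, R5N, S6T, T8A, D9Y and V12I. They joined TRAV3-3 to different J segments, TRAJ34 (chr14:54184699-54184756) in replicate 2 and TRAJ30 (chr14:54189866-54189924) in replicate 3. The TRA junction of replicate 2 held 3 bases matching neither segment and that of replicate 3 held 1 base. TRAJ34 carried A13G, counted from the first base of the segment, in 117 of 117 rearrangements of these libraries whatever their V gene, and that base was treated as part of the J segment here.

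TRBV5 was among the most used TRBV genes. In replicate 1 it was found in 276 cells (11.6%, exact 95% interval 10.4% to 13.0%), in replicate 2 in 397 cells (11.2%, 10.2% to 12.2%) and in replicate 3 in 45 cells (6.38%, 4.69% to 8.45%). Counted over distinct rearrangements, so that a large clone counts once, it made up 12.7% (165 of 1302), 9.35% (190 of 2033) and 6.70% (36 of 537) of TRB rearrangements, in the order of the replicates. Replicate 3 was low on both counts, and its intervals did not overlap those of replicate 1. It was also the shallowest library, and TRBV5 contigs had fewer UMIs than other TRB contigs in every library, with medians of 5 against 7, 4 against 6 and 2 against 4. With at least 3 UMIs required per contig, the share of cells with TRBV5 in replicate 3 was 3.55%, against 10.0% and 9.64% in replicates 1 and 2, and the part of depth in the difference was not tested.

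By its mean share of rearrangements, 9.57% ± 2.99 (SD, n = 3 libraries), TRBV5 came behind TRBs named TRBV12-2+TRBV13-2 (10.5% ± 1.07) and ahead of TRBV19 (8.44% ± 0.514). Neither neighbour differed from it beyond that spread. Among 22 TRBV names per library it ranked 1, 2 and 7.

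TRAV3-3 was less common, and its share of all cells, those without a TRA included, varied less between libraries. It was carried by 65 cells (2.74%, 2.12% to 3.48%), 122 cells (3.43%, 2.86% to 4.08%) and 22 cells (3.12%, 1.97% to 4.69%) of replicates 1 to 3. Over distinct rearrangements it made up 33 of 1231 (2.68%), 32 of 1700 (1.88%) and 11 of 394 (2.79%). The share of cells lay above the share of rearrangements in every library, by the most in replicate 2. There were 3.81 cells per TRAV3-3 rearrangement in replicate 2, against 1.97 and 2.00 in replicates 1 and 3. Of cells with any productive TRA, TRAV3-3 was in 3.27%, 4.33% and 4.77% in replicates 1 to 3, highest in replicate 3. Its mean share of rearrangements was 2.45% ± 0.496 (SD, n = 3), at ranks 12, 16 and 11 among 65, 67 and 62 TRAV names, and by its mean it stood between TRAV10D (2.91% ± 0.360) and TRAV12-3 (2.22% ± 0.631), neither beyond the spread. Its contigs had as many UMIs as other TRA contigs or more, with medians of 6 against 5, 7 against 3 and 4.5 against 3. Intervals cover counting error only and treat cells and rearrangements as independent.

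**Figure D1:**
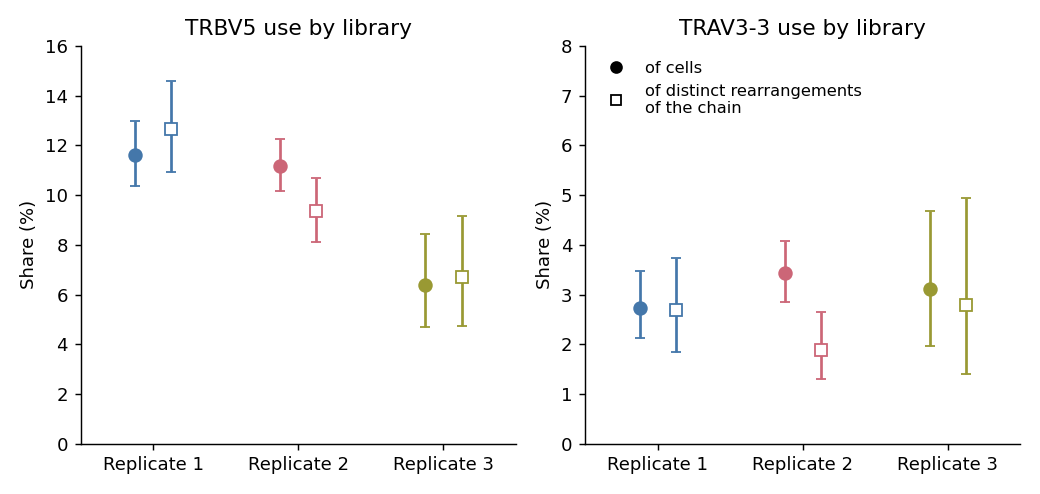
Share of TRBV5 (left) and TRAV3-3 (right) in each library in percent, of all cells (filled circles) and of the distinct rearrangements of the chain (open squares), with exact 95% intervals as bars. TRBV5 falls to 6.38% of cells in replicate 3, while TRAV3-3 stays between 2.74% and 3.43% of cells.

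TRBV5 joined all 12 TRBJ genes, most often TRBJ2-7 (73 rearrangements, 18.7%), TRBJ1-1 (58, 14.8%) and TRBJ2-5 (58, 14.8%). TRBJ2-1, the J gene of the largest clones of replicates 2 and 3, came next with 44 rearrangements. Those made up 9.09%, 13.2% and 11.1% of TRBV5 rearrangements in replicates 1 to 3, against 10.1%, 12.2% and 12.6% of those of other TRBV genes. In replicate 1, 15 TRBV5 rearrangements used TRBJ2-1 where 16.5 were expected from the use of both genes, a ratio of 0.910 (two-sided Fisher's exact test, adjusted p = 1). TRBJ2-1 was thus not over-represented among TRBV5 rearrangements of replicate 1, and no TRBV by TRBJ pair of that library passed an adjusted p under 0.05 in Fisher's exact test (0 of 175 pairs, 0%, with 15 at an unadjusted p under 0.05).

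TRBJ1-1 was higher among TRBV5 rearrangements than among those of other TRBV genes in all 3 libraries, at 15.2%, 13.2% and 22.2% against 9.06%, 10.3% and 11.4%, but did not pass in replicate 1, with 25 observed and 16.2 expected (exact p = 0.0175, adjusted p = 0.340). The lowest p for TRBV5 was with TRBJ1-6, named here after its values were seen, with 9 rearrangements observed and 3.42 expected (exact p = 0.00416, adjusted p = 0.235). TRBJ1-6 made up 5.45% and 6.32% of TRBV5 rearrangements in replicates 1 and 2, against 1.58% and 3.64% of other TRBV genes, but 2.78% against 2.79% in replicate 3. TRBJ2-4 lay the other way, also named after the values were seen, with 4 observed and 11.9 expected in replicate 1 (exact p = 0.00909, adjusted p = 0.235). Over all 12 TRBJ genes, the use most like that of TRBV5 was that of TRBV1 and TRBV13-3, whose shares differed from it by 23.6 and 25.2 percentage points in sum, among 17 TRBV genes with at least 50 rearrangements.

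**Figure D2:**
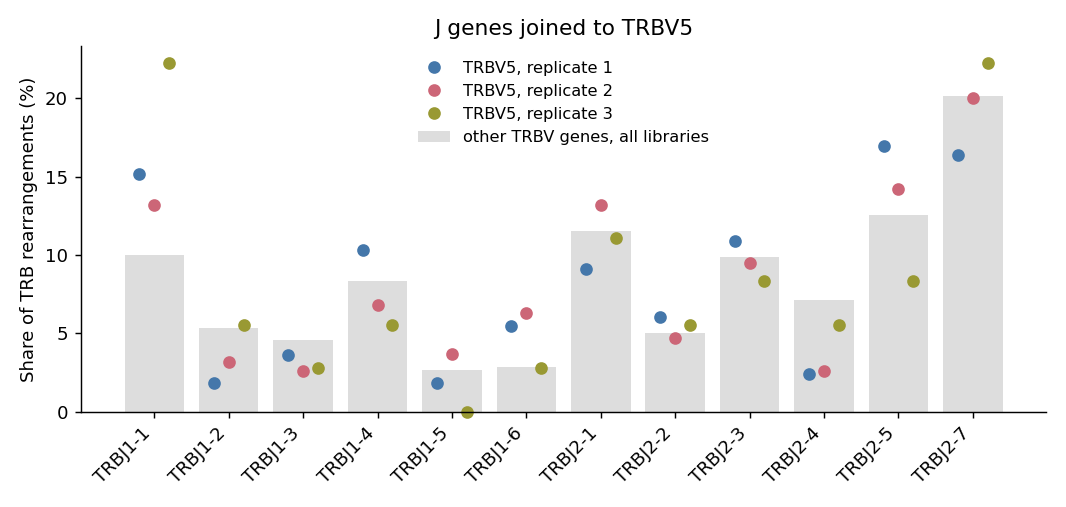
Share of TRB rearrangements in percent that use each TRBJ gene. Points are TRBV5 in each library and grey bars are all other TRBV genes over the 3 libraries. TRBJ2-1 points lie between 9.09% and 13.2%, around the bar of the other genes (11.5%), and TRBJ2-4 points lie below their bar.

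TRAV3-3 joined TRAJ26 and TRAJ37 most often, in 6 of its 76 rearrangements each, followed by TRAJ32, TRAJ34 and TRAJ39 with 5 each. No J gene held more than 7.89% of its rearrangements over the 3 libraries. TRAJ34 and TRAJ30, the J genes of the largest clones, made up 6.58% and 3.95% of TRAV3-3 rearrangements and 3.45% and 2.89% of those of other TRAV genes. The J use closest to it was that of TRAV6N-7 and TRAV13-1, which differed by 69.8 and 72.1 percentage points in sum over 42 TRAJ genes, among 21 TRAV genes compared. These sums are larger than for TRBV5, but the TRAV3-3 shares rest on 76 rearrangements against 391.

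The bases outside the junction separated TRAV3-3 receptors into 2 main forms. In replicates 2 and 3, 110 contigs from 30 rearrangements matched the reference TRAV3-3 at all 267 bases from framework 1 to framework 3. A further 34 contigs from 11 rearrangements, 6 in replicate 2 and 5 in replicate 3, carried the same single change, G58T, counted from the first base of framework 1, which gives V20F in the protein. The remaining 2 contigs each differed from the reference at 1 other base. Both main forms occurred in replicate 2, which is 1 mouse. The largest clones of replicates 2 and 3 had the reference form in all 53 and all 6 cells with their TRA.

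The TRAV3 genes are duplicated in the mouse, and TRAV3D-3 and TRAV3N-3, identical to each other, differ from TRAV3-3 at 4 bases of the last exon. The reference form lay at 0 differences from TRAV3-3 and 4 from the duplicates, and the other main form at 1 and 5. The deposited names held only TRAV3-3 and TRAV3-1 from this family, the latter in 80 contigs, and TRAV3-1 differs from TRAV3-3 at 28 bases. Of clones with 1 TRA and 1 TRB, 4 of 24 with the reference form joined TRBV5, against 0 of 9 with G58T, numbers too small to compare. All 446 TRBV5 contigs of both libraries had the same 267 bases as the reference.

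Most member rearrangements were seen in 1 cell. In replicate 1, 128 of 165 TRBV5 rearrangements and 26 of 33 TRAV3-3 rearrangements had 1 cell, and 37 (22.4%) and 7 (21.2%) had at least 2. Other TRBV genes had 20.1% and other TRAV genes 21.7% of their rearrangements in at least 2 cells, and the odds ratios were 1.15 for TRBV5 and 0.971 for TRAV3-3 (two-sided Fisher's exact test, adjusted p = 1 for each). None of the 61 V genes tested in replicate 1 passed an adjusted p under 0.05 (0%), with 2 at an unadjusted p under 0.05 in Fisher's exact test. A p that misses the threshold does not show that these genes expand like the rest.

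The largest member clones differed between libraries. In replicate 1 the largest TRBV5 rearrangements had 15 cells each, one with TRBJ2-1 and mostly TRAV9-1, the other with TRBJ2-7 and TRAV17, and the largest TRAV3-3 rearrangement had 21 cells with TRBV13-3. Neither gene's large clones in that library joined the other gene. In replicate 2 the largest TRBV5 rearrangement had 96 cells and the next 31, with TRBJ2-7 and TRAV6-6, while the largest TRAV3-3 rearrangement had 53 cells and the next 17, with TRAJ15 and TRBV19. In replicate 3 the largest had 7 cells for TRBV5, followed by 2, and 6 cells for TRAV3-3, followed by 4 with TRAJ26.

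The top TRBV5 and TRAV3-3 rearrangements of replicates 2 and 3 belonged to the same clone in each library. That clone held 23.9% of all TRBV5 contigs of replicate 2 and 15.6% of those of replicate 3, and 42.7% and 27.3% of the TRAV3-3 contigs. With every cell of the largest rearrangement of the gene taken out of each library, the mean share of cells fell to 8.403% for TRBV5, from 9.73% ± 2.90 (SD, n = 3), and to 2.04% for TRAV3-3, from 3.10% ± 0.348.

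**Figure D3:**
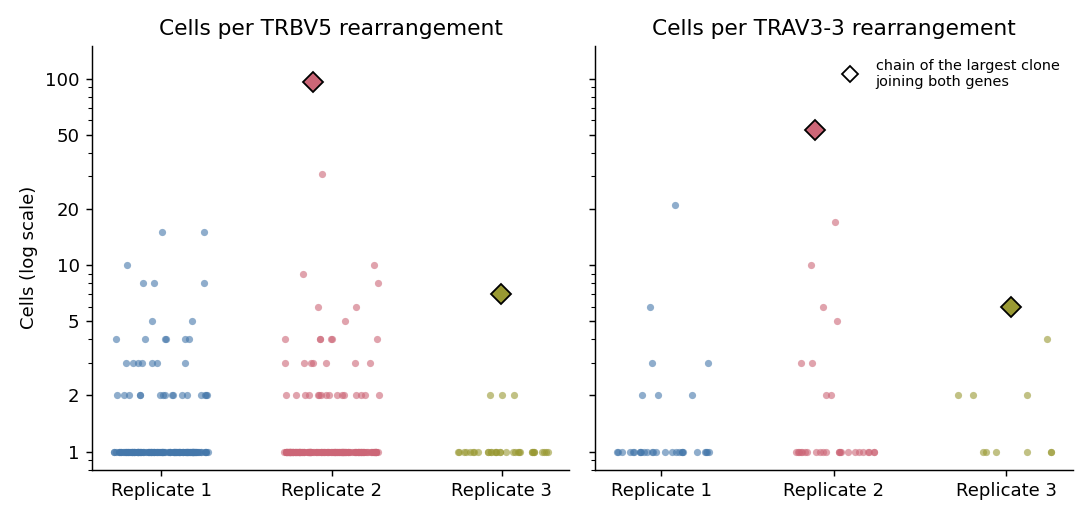
Cells in which each TRBV5 (left) and TRAV3-3 (right) rearrangement was found, on a log scale, by library. Each point is a rearrangement, and diamonds mark the chains of the largest clone joining both genes, at 96 and 53 cells in replicate 2 and 7 and 6 cells in replicate 3. In replicate 1 the largest rearrangements have 15 and 21 cells and belong to other clones.

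Pairing was examined over distinct clones, so that clone size did not enter, in cells with exactly 1 TRA and 1 TRB. TRAV3-3 with TRBV5 was found in 5 clones of replicate 1 where 3.17 were expected from the use of each gene, in 4 clones of replicate 2 with 2.40 expected, and in 1 clone of replicate 3 with 0.823 expected. Summed over libraries, 10 clones were observed and 6.39 expected, a ratio of 1.56. This sum and the partner counts below include the largest clones of replicates 2 and 3, whose pairing entered the choice of genes. The only such clone of replicate 3 was one of these. TRBV5 was the commonest partner of TRAV3-3, in 16.7% of its 60 clones, against 10.5% of all clones, followed by TRBV13-3 and TRBV19 with 6 clones each. The commonest partners of TRBV5 were TRAV5-4 (24 of 272 clones), TRAV9-1 (18) and TRAV6N-7 (16), and TRAV3-3 stood at 10.

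In replicate 1, the library the choice of genes did not use, the ratio was 1.58 and the odds ratio 1.75 over 930 clones of 1 mouse (two-sided Fisher's exact test, p = 0.234, adjusted p = 0.944). The excess of TRAV3-3 with TRBV5 thus did not pass the test, and with 3.17 clones expected this does not show that the genes pair independently. Of 108 TRAV by TRBV pairs tested in that library, 1 passed an adjusted p under 0.05 (0.926%), and it was not the member pair. Among 412 pairs with at least 2 clones expected over the 3 libraries, the member pair had rank 61 by its ratio, with a median ratio of 0.951 and a largest of 3.37. That rank also counts the largest clones of replicates 2 and 3, which entered the choice. The ratio moved with the depth required per chain. With at least 3 UMIs per contig it was 0.850 in replicate 1 and 1.11 over the 3 libraries, where 5 clones were left against 4.52 expected.

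**Figure D4:**
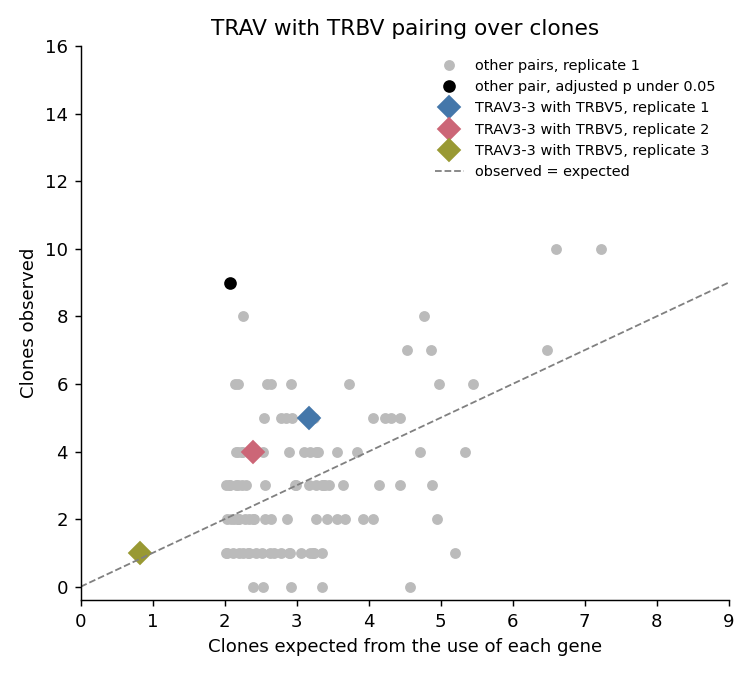
Clones observed against clones expected from the use of each gene, for TRAV by TRBV pairs. Grey and black points are the other pairs tested in replicate 1, black for the pair with an adjusted p under 0.05, diamonds are TRAV3-3 with TRBV5 in each library, and the dashed line marks equality. The diamonds lie at 5, 4 and 1 observed clones, above the line, those of replicates 1 and 2 among the grey points.

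The 5 clones of replicate 1 had 1 cell each and used 5 different TRBJ genes, none of them TRBJ2-1. Of the 4 in replicate 2, 3 had 1 cell, and these used TRBJ2-1 once and TRBJ2-3 in the others. In all, 63 cells with 1 TRA and 1 TRB joined TRAV3-3 to TRBV5, of which 49 came from the largest clone of replicate 2 and 6 from that of replicate 3. With every TRA of a cell paired with every TRB, 16 combinations were found in 68 cells, 14 of them in 1 cell, with 9.86 expected. Apart from its largest clone in each of replicates 2 and 3, the pairing was thus seen only in combinations of 1 cell. Some of their chains were in more cells with other partners. The TRAV3-3 and TRAJ37 chain of 1 combination in replicate 2 was in 10 cells, 7 of them with TRBV19 and TRBJ2-7.

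All 10 clones with 1 TRA and 1 TRB had glutamine, the residue that TRBV5 itself encodes, at position 5 of the TRB CDR3, whichever codon gave it. They include the largest clones of replicates 2 and 3, whose near-identical TRB junctions entered the choice of genes. The 5 TRBs of replicate 1 had 15, 8, 2, 1 and 1 UMIs. Of the 251 TRBV5 rearrangements paired with another TRAV, 155 had glutamine there (61.8%, 55.4% to 67.8%), and within replicate 1 the numbers were 5 of 5 and 68 of 106. With cells of more chains included, 12 of 16 combinations had it, and this comparison was made after the values were seen.

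The near-identical TRB family was small. TRB junctions with at most 1 residue different from that of replicate 2 or replicate 3 were found in 96 cells of replicate 2, 2.70% of its cells (2.19% to 3.29%), and in 7 cells of replicate 3, 0.993% (0.400% to 2.04%). They were found in 0 of 2374 cells of replicate 1, which allows a share of up to 0.126%. Replicates 2 and 3 held 1 such rearrangement each, and the counts did not change with 2 residues allowed. With 3 residues allowed and no limit on the V gene, the counts were 12, 120 and 8 cells in replicates 1 to 3. Of these, 4, 97 and 7 cells used TRBV5, and the other V gene with the most cells was TRBV19, with 20 cells of 1 rearrangement in replicate 2. Neither nucleotide junction was found on any barcode of another library.

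In replicate 2 the clone was seen with unequal chains. Of its 96 cells with the TRB, 49 had the TRAV3-3 TRA, 47 had no productive TRA and 0 had another TRA, while 4 further cells had the TRA and no TRB. Its 100 cells made up 2.81% of the library (2.29% to 3.41%), and the deposited clonotype also counted 100. The share of TRB cells without a TRA was 49.0%, against 20.7% of all cells of the library. Among the 40 other TRBs of at least 10 cells in replicate 2, the median share was 10.6%, and 3 of them had an equal or higher share.

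The TRB of this clone had the same median count where the TRA was missing. Among called cells, however, most counts of at least 17 UMIs were in cells with the TRA, and the cause of the missing TRA was not tested. Its median was 8 UMIs in cells with the TRA and 8 UMIs in cells without, and the TRA itself had a median of 9 UMIs where it was found. Among other cells of replicate 2 the median TRB had 6 UMIs with 1 TRA and 5 UMIs without. In 11 of the 47 cells without a productive TRA an unproductive contig named TRAV3-3 was assembled with no J gene, with a median of 6 UMIs, and such contigs were found in 0 of the 49 cells with the TRA and in 7 of the 3455 cells outside the clone. In replicate 3, 6 of 7 cells with the TRB had the TRA.

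Unproductive contigs with the same V and J names also recurred in the clone, noted after the values were seen and not tested. The choice of genes did not use them. An unproductive contig of TRAV13D-3 and TRAJ33 was in 12 of the 49 cells with the TRA and 7 of the 47 without it. It was in 0 of the 4 cells with the TRA and no TRB, and in 4 of the 3455 other cells of the library. It had a median of 2 UMIs in the clone, so it can be missed in many of its cells. No junction was reported for it, so whether these cells held the same rearrangement was not shown. In replicate 3, an unproductive contig joining TRAV4-3 to TRAJ39 was found in 2 of the 7 cells of the clone and in 0 of the 698 other cells.

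**Figure D5:**
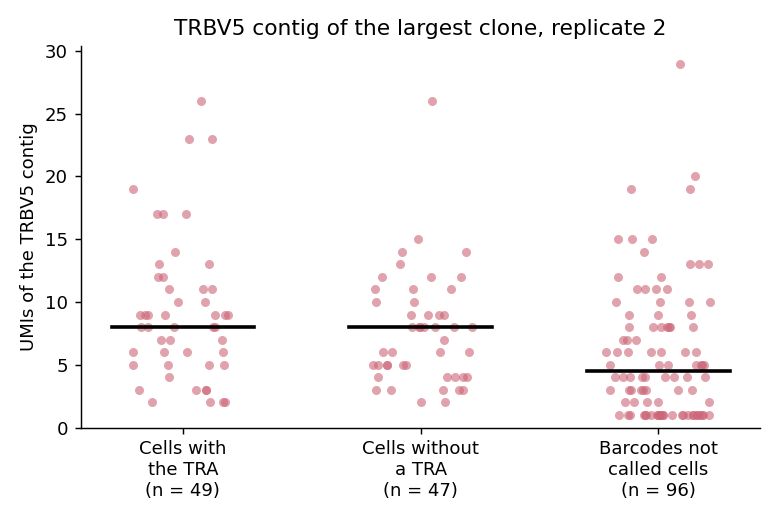
UMIs of the TRBV5 contig of the largest clone of replicate 2 in 49 cells with the TRA, 47 cells without a TRA and 96 barcodes that were not called cells. Points are barcodes and black lines are medians, at 8, 8 and 4.5 UMIs.

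A second group of TRBV5 receptors crossed libraries, noted after the values were seen. A clone of replicate 1 that joined TRAV3-3 to TRBV5, with 1 cell, had the same glutamine, arginine and aspartate at positions 5 to 7 of the TRB CDR3 as the largest clones of replicates 2 and 3, but used TRBJ2-7. Of 391 TRBV5 rearrangements, 10 had these 3 residues. The residues were read off these 3 TRAV3-3 clones, so their use of TRAV3-3 is no finding, and the other 5 TRBV5 clones with them and 1 TRA and 1 TRB used other TRAV genes. Its junction is shown with that of its closest match in replicate 2, because they encode the same residues. Capitals mark bases outside the V and J matches in the first, and the second was not split.
Replicate 1 TRB, TRBV5 and TRBJ2-7, with TRAV3-3: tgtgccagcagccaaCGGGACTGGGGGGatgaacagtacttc
Replicate 2 TRB, TRBV5 and TRBJ2-7, with TRAV14-1: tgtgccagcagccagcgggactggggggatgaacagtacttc

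These TRBs differed at 1 base, A15G, and had the same residues. The replicate 2 clone had 9 cells and joined TRAV14-1 to TRAJ23, and the replicate 1 clone also used TRAJ23. Within 1 residue of them, TRBV5 clones with TRBJ2-7 comprised 2 more, 1 cell in each of replicates 1 and 2. Those had identical TRB bases, differed from the replicate 1 clone by Q5P, and both joined TRAV14-1 to TRAJ23. Their TRA CDR3 residues were also identical, so both chains matched across these libraries, and the cause was not tested. All 4 TRBV5 clones of this group thus used TRAJ23, and 3 of them TRAV14-1. A clone of 1 cell in replicate 1 had the same TRB residues with TRBV2 and TRBJ2-7, and it joined TRAV8D-2 to TRAJ44. TRAJ23 made up 5.26% of TRAV3-3 rearrangements and 4.86% of those of other TRAV genes.

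How often near-identical TRBs of different libraries share a TRAV gene gives a rough measure for the largest clones. Over all TRBV genes there were 164 pairs of clones from different libraries with the same TRBV, TRBJ and CDR3 length and at most 1 residue different, and 69 of them (42.1%, 34.4% to 50.02%) used the same TRAV. Among the 38 TRBV5 pairs, 9 did (23.7%, 11.4% to 40.2%), and the pair of largest clones was the only one with TRAV3-3 in both. Pairs share clones and are not independent, so no test was made. Both clones of a pair had at least 2 cells in 9 of the 164 pairs, and 5 of these shared the TRAV. Sharing was counted by exact gene name, so a TRBV19 pair with TRAV10N and TRAV10D, of 11 and 3 cells, counted as not shared. In TRBV5 there were 2 such pairs, the largest clones of replicates 2 and 3 with 49 and 6 paired cells, and a TRBJ2-5 pair of 2 cells each that used TRAV5-4 and TRAV17.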

How the data were processed

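The authors sequenced CD45+ cells of sciatic nerves with 10X Genomics V(D)J 5′ kits and assembled contigs with Cell Ranger on mm10, whose version is not given in the sources used here. The tables that the authors deposited hold UMI and read counts of every contig, beside its genes, CDR3 and productivity, and the cell count of every clonotype. The table of replicate 1 had fewer columns, without framework bases. Consensus tables were not used.

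Productive TRA and TRB contigs of called cells were kept. No doublets were called or removed here, so cells with 2 TRBs can hold doublets, and pairing used cells with 1 TRA and 1 TRB. A rearrangement was a V gene, nucleotide CDR3 and J gene, and a clone a pair of these in cells with exactly 1 TRA and 1 TRB, within a library. Depth was 34630, 41338 and 5142 UMIs in replicates 1 to 3. Clopper-Pearson 95% intervals cover counting error only, and where none was counted the limit is that of 3 counts. In replicate 1, two-sided Fisher's exact tests were made for TRAV by TRBV and TRBV by TRBJ pairs with at least 2 expected and for V genes with at least 10 rearrangements, each family adjusted by Benjamini-Hochberg. They compare clones of 1 mouse, not mice. Those of pairing and expansion were checked on simulated data with strong planted effects in commonly used V genes. This does not show that a link of the size seen for the member pair would be found. Junctions were matched from both ends to GRCm38 segments, with a D match of at least 4 bases.

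Members and lists were chosen with earlier results of these data known. Named were the members, their 3 commonest J genes and partners (ties included), clones joining both, their 2 largest clones per library, TRAV3 genes and the 2 V genes of closest J use. Alternatives were at least 3 UMIs per contig, other chain and clone definitions, other limits, TRAV3 duplicates as 1 gene and leaving out each library. Those without the largest clones or shared barcodes were chosen after seeing the data. Tests were run with scipy 1.17.1, tables with pandas 2.3.3 and numpy 2.4.6 and plots with matplotlib 3.10.9, under Python 3.11.15.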

Additional observations from a re-analysis of the deposited data

Results flagged for a closer look

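In replicate 2, the TRB of the largest clone joining TRAV3-3 to TRBV5 was also assembled on 96 barcodes that were not called cells, a signal outside the cells counted above. On 84 of these the contig was productive, with a median of 4.5 and a maximum of 29 UMIs over all 96, and the TRA of the clone was found on 41 barcodes outside cells. This was 1.00 barcode outside cells per cell, against a median of 0.500 for the 40 other TRBs of at least 10 cells, 4 of which had an equal or higher ratio. In replicate 3 the TRB of the largest clone was on 2 such barcodes.

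Among unproductive contigs, which no share above counts, TRAV3-3 without a J gene was found in 11 of the 96 TRB cells of the same clone and in 7 of the 3455 cells outside it. TRAV13D-3 with TRAJ33 was found in 19 of the 96 and in 4 of the 3455. No group had 4 or more libraries, and there was 1 condition, so neither a library far from the rest nor a difference between groups was looked for.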

How the results depend on the processing

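Of 70 values recomputed for 15 results, 56 kept their direction and stayed within the spread or limit set for them, and the cause of the other changes was not tested. With at least 3 UMIs per contig, the pairing ratio of replicate 1 turned to 0.850 (adjusted p = 1 in the exact test), the summed ratio fell to 1.11, the share of TRA rearrangements with TRAV3-3 rose to 3.09%, the pairs called in replicate 1 went from 1 to 0 and the V genes called for expansion from 0 to 1. Pairs called were 0 with every TRA paired with every TRB and 2 with clones by amino acid, and the adjusted p of the member pair ranged from 0.919 to 1 in the exact test over its alternatives. With expansion over 2 cells the odds ratio of TRAV3-3 turned to 1.18 (adjusted p = 0.904, exact test). The share of cells with TRAV3-3 was 3.95% in cells with 1 TRA and 1 TRB and 2.04% without the largest clone. Same-TRAV neighbours were 58.8% (20 of 34) with identical TRB CDR3. Leaving out a library in turn gave 8.78% to 11.4% and 2.93% to 3.28% for the shares of cells with TRBV5 and TRAV3-3, 8.02% to 11.01% and 2.28% to 2.74% for those of rearrangements, 1.502 to 1.62 for the summed ratio, 11 to 58 joining cells and 7 to 103 cells of the near-identical family, the lowest without replicate 2 in both counts, and 35.3% to 53.6% for neighbours, the highest without replicate 1. Counting TRAV3 duplicates as 1 gene could change nothing, as those names did not occur, and these values are among the 56. The near-identical family without replicate 1 is also among them, and replicate 1 held 0 of its cells. No paired analysis was possible because there was 1 condition, so its samples have no counterpart in another group. Clones of 1 cell and chains of 1 to 2 UMIs limit all pairing counts, and cells with no TRA enter none of them.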

Other observations

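Cells with TRBV5 more often held a second productive TRB than all cells did, at 11.6%, 10.3% and 2.22% against 4.80%, 6.10% and 1.42% in the order of the replicates. A second TRA was found in 20%, 7.38% and 0% of TRAV3-3 cells, against 8.17%, 7.37% and 2.84% of all cells. A cell with more chains has more chances to hold any given gene, so these shares were not tested against each other.

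Productive TRBV5 contigs also lay on 609, 187 and 32 barcodes that were not called cells, with a median of 1, 3 and 1 UMIs, and TRAV3-3 contigs on 61, 56 and 8, with a median of 1, 7 and 1 UMIs. Of TRBV5 cells, 9.78%, 24.7% and 22.2% had no TRA, against 16.2%, 20.7% and 34.6% of all cells. In replicate 2, where that share was above that of all cells, 47 of the 98 TRBV5 cells without a TRA belonged to the largest clone.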
